A study of Arabidopsis thaliana with 6 samples.

Results

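Described here are 54 nuclear genes of the photosynthetic light reactions in *Arabidopsis* embryos. They were chosen by locus as members of named gene families. The rule uses no measured value, although the families were picked with earlier results of these data known. They are 54 of the 24509 transcripts that had a read in any library. The list holds 6 *LHCA* and 15 *LHCB* genes (the antenna, 21 genes), 12 *PSA* and 11 *PSB* genes (the core, 23 genes), 7 genes of electron carriers, which are the Rieske protein, plastocyanins, ferredoxins and ferredoxin-NADP reductases, and 3 genes of the plastid ATP synthase. RNA-Seq was performed on Col-0 embryos dissected 8 d after pollination from plants homozygous for *atwri1-1* and from WT plants, with 3 biological replicates of 25 to 30 pooled embryos each, grown under 16 h of light and 8 h of night. A single mutant allele was used, the genotype was the only difference named between the groups, and p-values measure the spread between these 6 libraries. *WRI1*, the mutated gene, encodes an AP2 transcription factor that activates genes of glycolysis and fatty acid synthesis. Its mRNA was above the WT level, not below it, at 1256, 1100.2 and 1042 CPM in libraries labelled *atwri1-1* against 186, 148 and 166 CPM in WT, with a log2 fold change of 2.76 ± 0.16 and an adjusted p of 0.000226 by edgeR's quasi-likelihood test. The labels could not be checked from a loss of *WRI1* mRNA. Of the fatty acid synthesis genes, *BCCP2*, *CAC2*, *ACP3* and *ACP4*, whose soybean counterparts the study assayed as WRI1 targets, were called lower in libraries labelled *atwri1-1* in all 13 fits, by a log2 fold change of -5.48, -1.47, -1.69 and -1.22. Each direction below is that of libraries labelled *atwri1-1* against libraries labelled WT.

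The light reactions are carried out in the thylakoid membrane. Photosystem II takes electrons from water, and photosystem I passes them on to ferredoxin. Between them stand the cytochrome b6f complex, of which the Rieske protein is a part, and plastocyanin, a small copper protein of the lumen. Ferredoxin-NADP reductase makes NADPH, and the ATP synthase uses the proton gradient that the chain builds. LHCA proteins bind chlorophyll around photosystem I and LHCB proteins around photosystem II. The photosystem cores are mixed in origin: the chlorophyll-binding reaction centre proteins are encoded in the plastid and most of the small and peripheral subunits in the nucleus. *Arabidopsis* embryos turn green before they fill with oil, and their plastids then hold thylakoids as well as the enzymes of fatty acid synthesis.

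Between 8510887 and 18933870 reads were counted on transcripts in each library, and all 54 genes passed the filter on low counts among 18241 genes tested. Values are CPM, counts per 1e+06 reads of the tested genes over library sizes scaled by TMM, and a count of 3 corresponded to between 0.148 and 0.338 CPM. A gene was called lower or higher where its Benjamini-Hochberg adjusted p over all genes tested was 0.05 or less and its log2 fold change lay beyond 1. Values after ± are SE for log2 fold changes and SD for means, with n = 3 in each group. WT replicate 1 stood apart from the other WT libraries in these genes. It was the highest WT library for 50 of the 54, against 44.6% of all genes tested, and its values lay a median of 0.63 (log2) above the mean of WT replicates 2 and 3, against 0.00 over all genes tested. Its reads also fell on shorter transcripts, with 804592 CPM per kilobase summed over all transcripts against 561476 to 612773 in the other 5 libraries, and the part of transcript length in its values was not tested. Counts are also given without WT replicate 1. In bulk RNA, fewer cells of a type and less RNA per cell cannot be told apart.

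Expression of the genes was lower in the libraries labelled *atwri1-1* than in WT. Of the 54, 36 were called lower and 0 higher by edgeR's quasi-likelihood test (0 were higher at an unadjusted p under 0.05, by DESeq2 or by limma-voom), while 5.31% of all genes tested were called lower and 1.08% higher. With the adjusted p alone and no minimum fold, 42 were lower, against 7.51% of all genes tested. For 52 of the 54, all 3 libraries labelled *atwri1-1* lay below all 3 WT libraries, as for 18.9% of all genes tested. The exceptions were *LHCB7* and *FD1*. The log2 fold change was negative for 53 of the 54, as for 50.6% of all genes tested. Its median was -1.26, or 2.40-fold lower, and it ranged from -4.42 to 0.01, while over all genes tested the median was -0.01. Without WT replicate 1, 27 of the 54 were called lower (5.82% of the genes then tested), and the median log2 fold change was -0.99. In that fit 50 of the 54 passed the adjusted p as lower with no minimum fold, against 2411 of 18665 genes tested. Fitted with a block for the replicate number, 35 of the 54 were called lower (5.13% of all genes tested). Leaving out replicate 1, 2 or 3 labelled *atwri1-1* left 20, 19 or 17 called lower. Calls over all genes fell in these fits too, to 589 of 18675, 545 of 18636 and 552 of 18655 tested, from 968 of 18241. The direction was negative for 52 genes in all 6 fits that left out a library.

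**Figure D1:**
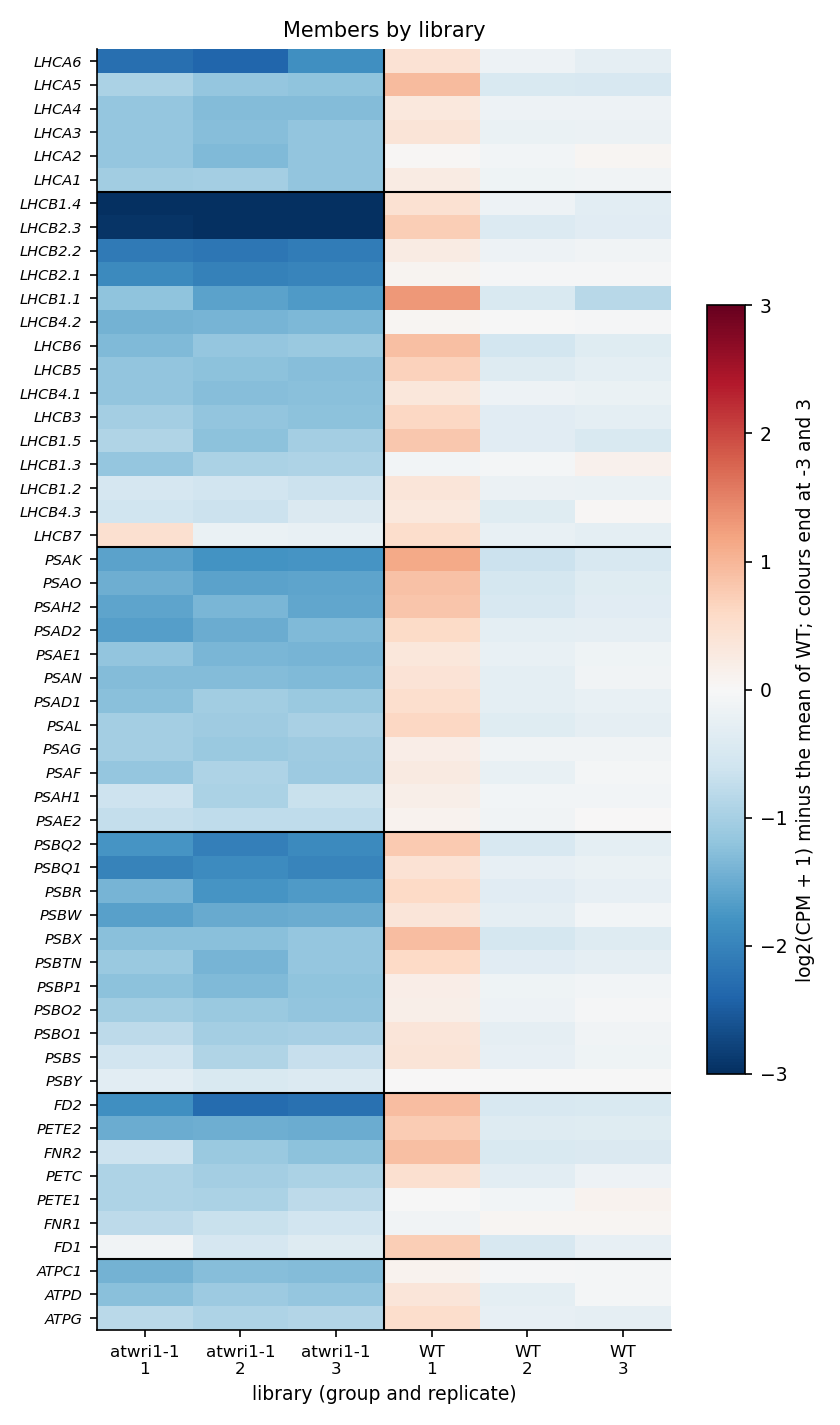
Each row is 1 of the 54 genes and each column 1 library, and the colour gives log2(CPM + 1) minus the mean of the 3 WT libraries, with black lines between *LHCA*, *LHCB*, *PSA*, *PSB*, carrier and ATP synthase genes. The 3 libraries labelled *atwri1-1* are below all 3 WT libraries in 52 rows, and WT replicate 1 is the highest WT library in 50 of 54 rows.

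Together the 54 genes took 4.79, 3.30 and 3.46% of the reads in WT replicates 1, 2 and 3 and 1.97, 1.89 and 1.87% in those labelled *atwri1-1*. After scaling, their summed level was 54383, 33783 and 35890.5 CPM in WT against 18454, 17612 and 17972 CPM in libraries labelled *atwri1-1*, a ratio of the means of 2.296. WT replicate 1 was far above the other WT libraries, and the libraries labelled *atwri1-1* were close together. The same held gene by gene, since the median coefficient of variation was 6.84% among libraries labelled *atwri1-1* against 27.2% among WT libraries, and it was larger in WT for 49 of the 54.

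Antenna and core genes were compared as groups. Called lower were 14 of 21 antenna genes (median log2 fold change -1.28) and 17 of 23 core genes (median -1.29). Without WT replicate 1 the counts were 11 and 12 and both medians were -1.03. Without replicate 1, 2 or 3 labelled *atwri1-1*, 8, 8 or 6 core genes were called lower. The summed level of the antenna genes was 8706, 8577 and 8612 CPM against 24731, 16690.0 and 17442 CPM in WT, a 2.27-fold difference of the means. For the core genes it was 7532, 7023 and 7257 CPM against 23099, 13459 and 14590.3 CPM, a 2.35-fold difference. The antenna and the core were thus close in their medians and in their sums.

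Antenna genes varied more among themselves, with log2 fold changes from -4.42 to 0.01, while core genes lay between -2.03 and -0.39. When each gene counted equally, the mean log2(CPM + 1) of antenna genes minus that of core genes was -0.949, -0.999 and -0.999 for libraries labelled *atwri1-1* against -0.838, -0.776 and -0.867 for WT. The difference of the group means was -0.16, so that antenna genes were lower relative to core genes in the libraries labelled *atwri1-1*, with no overlap between groups. This difference rested on *LHCA6*, *LHCB1.4* and *LHCB2.3*, for without them it was 0.083, and no test was made of it. The ratios of summed CPM overlapped between groups for *LHCA* over *PSA* genes, at 0.807, 0.763 and 0.754 against 0.644, 0.854 and 0.815 in WT, and for *LHCB* over *PSB* genes, at 1.44, 1.65 and 1.56 against 1.46, 1.57 and 1.52.

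**Figure D2:**
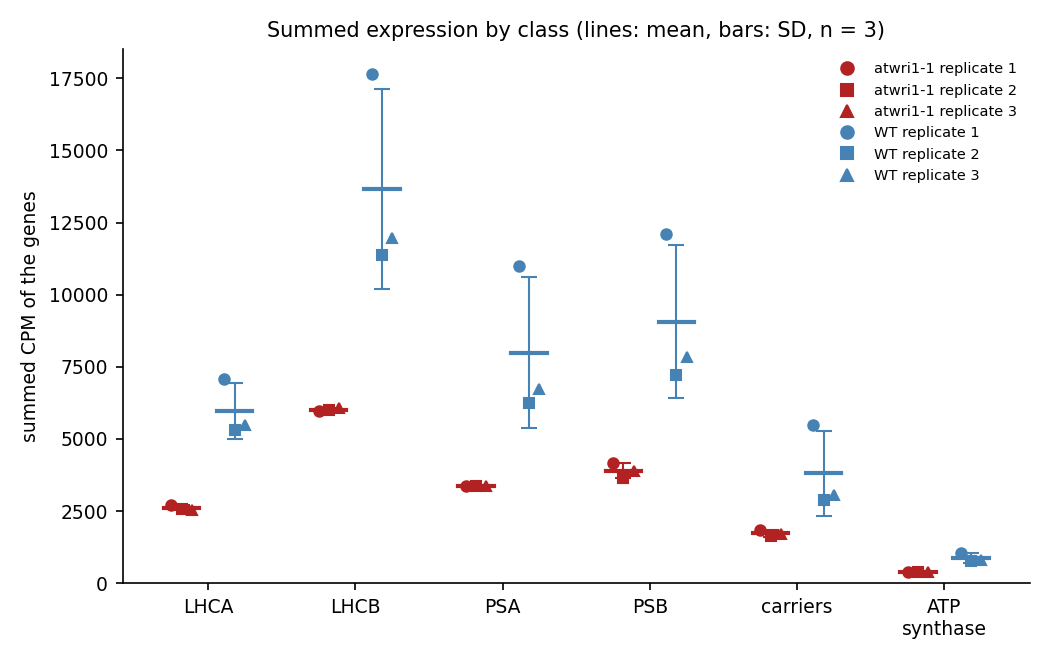
Summed CPM of each class of genes in the 3 libraries labelled *atwri1-1* (red) and the 3 WT libraries (blue), with a marker shape for each replicate, lines at the means and bars of 1 SD. All classes are lower in the libraries labelled *atwri1-1*, with ratios of the means from 2.21 for the carriers to 2.37 for *PSA*, and WT replicate 1 is the highest library in every class.

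The *LHCA* genes encode the belt of antenna proteins on photosystem I. Of the 6, 5 were called lower (3 without replicate 3 labelled *atwri1-1*), and the 4 that encode the main belt fell by similar amounts. *LHCA1* (AT3G54890) was at 1068, 1084 and 969.6 CPM in libraries labelled *atwri1-1* against 2601, 1998 and 2044 CPM in WT (log2 fold change -1.09 ± 0.16, adjusted p = 0.00712). *LHCA2* (AT3G61470) was at 436, 386 and 429 CPM against 994, 910.2 and 1005 CPM in WT (-1.22). *LHCA3* (AT1G61520) was at 504, 468 and 498 CPM against 1471, 986 and 1001 CPM in WT (-1.23). These 3 genes had no overlap between groups, and *LHCA2* differed least between WT replicate 1 and the other WT libraries, with a ratio of 1.04. *LHCA4* (AT3G47470), whose product pairs with LHCA1 and carries long-wavelength chlorophylls, was at 698, 632 and 632 CPM against 1948, 1396 and 1406 CPM in WT (-1.28). Per length, *LHCA1* was the most abundant of the class in WT, at 2821 ± 76.6 TPM, and *LHCA4* followed at 1831 ± 49.5 TPM. Without WT replicate 1, *LHCA1* missed the fold minimum, at a log2 fold change of -0.96.

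*LHCA5* and *LHCA6* encode low-abundance proteins that link photosystem I to the NADH dehydrogenase-like (NDH) complex. *LHCA6* (AT1G19150, chromosome 1, 6612630 to 6613972 in TAIR10.1) was at 1.92, 1.73 and 2.93 CPM in libraries labelled *atwri1-1* against 18.1, 11.6 and 10.6 CPM in WT, a log2 fold change of -2.64 ± 0.32 with an adjusted p of 0.00325. It had the largest fall in its class, from between 123 and 231 reads in WT to between 21 and 35, and was called lower in each of the 6 fits that left out a library. *LHCA5* (AT1G45474) was at 13.6, 11.6 and 11.2 CPM against 53.3, 19.6 and 19.2 CPM in WT. Its log2 fold change was -1.34 ± 0.41 and it was not called (adjusted p = 0.0880), with WT replicate 1 at 2.74 times the mean of the other WT libraries.

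Among *LHCB* genes, which encode the antenna of photosystem II, 9 of 15 were called lower. *LHCB1* and *LHCB2* encode the main subunits of the trimeric light-harvesting complex II, the most abundant membrane protein of leaves. *LHCB1.3* (AT1G29930) was the most abundant of the 54 genes per length, at 5404 ± 1104 TPM in WT against 3081 ± 259 TPM with the label *atwri1-1*. It was at 1945, 2234 and 2287 CPM in libraries labelled *atwri1-1* against 4109, 4159.9 and 4710.3 CPM in WT, a log2 fold change of -1.01 ± 0.15 (adjusted p = 0.00757), close to the fold minimum. *LHCB1.3* was also among the 4 genes for which WT replicate 1 was not the highest WT library. *LHCB1.2* (AT1G29910), which lies in a row with *LHCB1.1* and *LHCB1.3* on chromosome 1, was at 709.7, 676 and 639 CPM against 1291, 898 and 881 CPM in WT (-0.60 ± 0.18, adjusted p = 0.0903) and was not called.

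The other *LHCB1* genes spread widely. *LHCB1.1* (AT1G29920) was at 247, 187 and 176 CPM against 1394, 413 and 319.7 CPM in WT and *LHCB1.5* (AT2G34420) at 598, 477 and 549 CPM against 1963, 886 and 812 CPM in WT. Neither was called (adjusted p = 0.0847 and 0.0788), and WT replicate 1 was 3.80 and 2.31 times the mean of WT replicates 2 and 3. *LHCB1.4* (AT2G34430, chromosome 2, 14524607 to 14525918) had the largest fall of all 54 genes, from 219, 124 and 113 reads in WT to 6, 11 and 6 in libraries labelled *atwri1-1*. These were 0.549, 0.542 and 0.676 CPM in libraries labelled *atwri1-1* against 17.2, 11.0 and 9.75 CPM in WT, a log2 fold change of -4.42 ± 0.34 (adjusted p = 0.000494). *LHCB1.4* and *LHCB1.5* lie next to each other on chromosome 2 with 1038 bases between them, and in WT replicates 2 and 3 *LHCB1.5* was at 886 and 812 CPM while *LHCB1.4* was at 11.0 and 9.75 CPM. The summed level of the *LHCB1* genes was 3499.7, 3575 and 3651 CPM against 8774, 6368 and 6733 CPM in WT, a 2.04-fold difference.

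The *LHCB2* genes, whose products are phosphorylated when the antenna moves between photosystems, had larger falls than the *LHCB1* genes as a family. *LHCB2.1* (AT2G05100) was at 112, 103 and 107 CPM in libraries labelled *atwri1-1* against 447, 416 and 413 CPM in WT (-1.99 ± 0.12, adjusted p = 0.000242). *LHCB2.2* (AT2G05070) was at 95.9, 93.2 and 97.5 CPM against 502, 382 and 396 CPM in WT (-2.16 ± 0.15). *LHCB2.3* (AT3G27690) was at 16.8, 12.5 and 10.9 CPM against 229, 102 and 108 CPM in WT (-3.44 ± 0.37). All 3 were called in each of the 6 fits that left out a library, and *LHCB2.1* was nearly level across the WT libraries. Summed over the family, *LHCB2* was at 225, 209 and 216 CPM against 1178, 899 and 917 CPM in WT, a 4.61-fold difference, and 4.199-fold against WT replicates 2 and 3. The ratio of *LHCB2* to *LHCB1* summed CPM was 0.0642, 0.0584 and 0.0590 with the label *atwri1-1* against 0.134, 0.141 and 0.136 with the label WT. The WT ratios lay close together, WT replicate 1 included, and more than 2-fold above the others. The families were compared after their values were seen, so no test was made.

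The remaining *LHCB* genes encode the third trimer subunit and the monomeric antenna proteins that join the trimers to the core. *LHCB3* (AT5G54270) was at 479, 432 and 415 CPM in libraries labelled *atwri1-1* against 1506, 774 and 797 CPM in WT (-1.22 ± 0.27, adjusted p = 0.0341). *LHCB5* (AT4G10340), which encodes CP26, was at 687, 671 and 639 CPM against 2522, 1187 and 1276 CPM in WT (-1.32 ± 0.30, adjusted p = 0.0337). Both were called, and both missed the fold minimum without WT replicate 1, at -0.83 and -0.89. *LHCB6* (AT1G15820), which encodes CP24, was at 349, 388 and 402 CPM against 1637, 596 and 675 CPM in WT, with no overlap between groups but no call (adjusted p = 0.0696). Of the 3 genes for CP29, *LHCB4.1* (AT5G01530) was at 439.9, 415 and 419 CPM in libraries labelled *atwri1-1* against 1280.0, 907 and 882 CPM in WT (-1.27 ± 0.18, adjusted p = 0.00612). *LHCB4.2* (AT3G08940) was at 189.9, 193 and 199 CPM against 530.1, 501 and 497 CPM in WT (-1.39 ± 0.12, adjusted p = 0.000853). Both were called in every fit that left out a library, and *LHCB4.2* was even across the WT libraries, with WT replicate 1 at 1.06 times the mean of the others.

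*LHCB4.3* (AT2G40100), a form that in leaves accumulates in strong light, was not called, at 113, 110.2 and 127 CPM in libraries labelled *atwri1-1* against 215, 135 and 177 CPM in WT (-0.59 ± 0.19, adjusted p = 0.0986). *LHCB7* (AT1G76570), a rare member of the family, was the only gene of the 54 with a positive estimate, 0.01 ± 0.47 (adjusted p = 0.993), at 3.57, 1.82 and 1.80 CPM against 3.69, 1.77 and 1.64 CPM in WT. It had 16 to 47 reads in a library, and the groups overlapped.

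**Figure D3:**
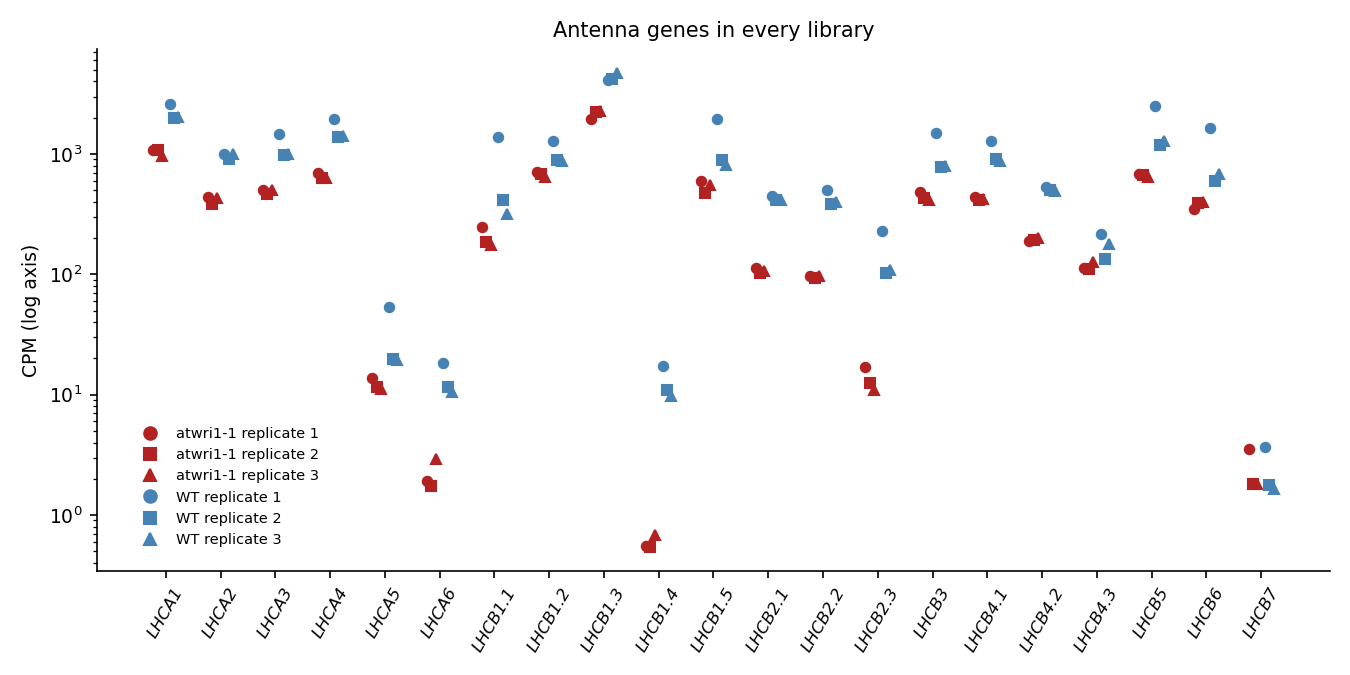
CPM (log axis) of the 21 antenna genes in every library, with the libraries labelled *atwri1-1* in red, WT in blue and a marker shape for each replicate. The groups are far apart for *LHCB1.4*, *LHCB2.1*, *LHCB2.2*, *LHCB2.3* and *LHCA6*, and WT replicate 1 lies well above the other WT libraries for *LHCB1.1*, *LHCB1.5* and *LHCB6*.

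The *LHCB1* genes, like the *LHCB2* genes, resemble each other in sequence. Reads with more than 1 best place were dropped by the authors, so a gene was counted only over the stretches that set it apart. Of all 31-base stretches of the transcripts in RefSeq TAIR10.1, 61.4% to 76.5% were unique to the gene for the *LHCB1* genes and 60.6% to 72.5% for the *LHCB2* genes. Values of single copies are less certain for this reason, as are those of *PSAH1* (50.1% unique), *PSAH2* (78.6%), *PSAE1* (69.1%) and *PSAG* (40.1%). The last 2 share sequence with transcripts that had no read here. Not all sharing was between copies. The transcript that shared most stretches was AT3G16130 for *PSAH1* (49.9%), AT1G52240 for *PSAH2* (21.4%) and AT3G27700 for *LHCB2.3* (26.8%). None of these belongs to the genes described here. The 13 antenna genes with at least 80% unique stretches had a median log2 fold change of -1.27.

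Upstream sequence was examined because 14 of the 21 antenna genes were called lower and because the mutated gene encodes a DNA-binding protein. Of the core genes, 17 of 23 were called lower as well, and a link between any element and the lower values was not tested. Letters were searched on both strands in the 250 bases before each transcript start in RefSeq TAIR10.1. The GLK-type element (CCAATC), which GOLDEN2-LIKE factors of chloroplast development recognize, was found upstream of 10 of 21 antenna genes (47.6%), 2 of 23 core genes (8.70%), 4 of 10 carrier and ATP synthase genes and 10.2% of all 27442 protein-coding genes. In the 500 bases after the transcript start the order was another, with 6 of 21 antenna genes (28.6%), 12 of 23 core genes (52.2%) and 25.1% of all protein-coding genes. The stretches of 7 of these 10 antenna genes are shown, 5′ to 3′ on the gene's strand with the element in capitals. They were picked after the values were seen, because the *LHCB2* and *LHCB4* genes among them had falls that held without any single library. *LHCB1.3* was called in 3 of the 6 fits that left out a library.
*LHCA4*: atcttattccgaCCAATCtcaaacaacatt
*LHCB1.3*: gtgggtgtttcgCCAATCcatgaaacgcac
*LHCB2.1*: ccacagccactaCCAATCttctattaggac
*LHCB2.2*: ccacaaccattaCCAATCtcctcataggac
*LHCB2.3*: atctaaaaccaaCCAATCtacactcgctga
*LHCB4.1*: aaattatttgacCCAATCagattgtacctc
*LHCB4.2*: agcttcttttgcCCAATCagcttgcttgcc
In TAIR10.1 they lie at chr3:17495064-17495093 (minus strand) for *LHCA4*, chr1:10477782-10477811 (plus strand) for *LHCB1.3*, chr2:1824522-1824551 (minus strand) for *LHCB2.1*, chr2:1800508-1800537 (minus strand) for *LHCB2.2*, chr3:10255840-10255869 (plus strand) for *LHCB2.3*, chr5:208819-208848 (plus strand) for *LHCB4.1* and chr3:2717469-2717498 (plus strand) for *LHCB4.2*, and the element starts between 35 and 91 bases before the transcript start. Those of *LHCB2.1* and *LHCB2.2* are identical at 25 of 30 positions and each has 12 of 30 in common with that of *LHCB2.3*. The GLK-type element also holds the letters of the CCAAT Box (CCAAT), which the paper lists among elements that maturation regulators bind. A match is a description of the letters and not of binding.

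The G-box (CACGTG, the same on both strands), which many light-responsive genes carry, was found upstream of 11 of 54 genes (20.4%) and of 6.64% of all protein-coding genes, and after the transcript start the shares were 25.9% and 6.48%. For the I-box (GATAAG) they were 33.3% and 12.4% upstream and 50.0% and 23.9% after the start. The AW Box (CNTNG and CG with 7 bases between them, where N is any base), the element that WRI1 binds in vitro, was found upstream of 5 of 54 genes (9.26%) and of 9.46% of all protein-coding genes. In the 500 bases after the transcript start the shares were 46.3% and 40.02%. The CNC Box (CNCCNCC), found in soybean at WRI1 binding sites, was upstream of 9 of 54 genes (16.7%) against 10.5%, and in the 500 bases after the transcript start of 75.9% against 48.2%. No matches of different elements overlapped upstream of these genes. The 5 upstream AW Box matches are shown in capitals because WRI1 is the mutated gene, and those of *FD2* and *PSAN* are on the other strand.
*ATPC1*: aaaaaaaaCATTGAAGATATCGaaccatcc
*FD2*: tatttagaCGATACAAACAAGGtccgaata
*LHCA6*: tcgtgacaCGTAGATGAGATCGttgccacg
*PSAN*: agttaaacCGGATCAGACTAAGaaaacaga
*PSBQ2*: acaatttgCTTAGATATTATCGaaaccggt
On the gene's strand in TAIR10.1 the stretches lie at chr4:2352098-2352127 (minus strand) for *ATPC1*, chr1:22444276-22444305 (plus strand) for *FD2*, chr1:6612443-6612472 (plus strand) for *LHCA6*, chr5:25629754-25629783 (minus strand) for *PSAN* and chr4:2673445-2673474 (minus strand) for *PSBQ2*.

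The nuclear *PSA* genes encode the stromal, lumenal and peripheral subunits of photosystem I. Of the 12, 10 were called lower, and all 12 passed the adjusted p with no overlap between groups. Without WT replicate 1, 6 were called, and without replicate 1, 2 or 3 labelled *atwri1-1*, 3, 4 or 2 were. PSAD and PSAE form the stromal side where ferredoxin docks. *PSAD1* (AT4G02770) was at 324, 377 and 359 CPM in libraries labelled *atwri1-1* against 1106, 639.6 and 667 CPM in WT (-1.19 ± 0.23, adjusted p = 0.0207). *PSAD2* (AT1G03130) was at 109.6, 123 and 136 CPM against 517, 279.9 and 285 CPM in WT (-1.55 ± 0.26). *PSAE1* (AT4G28750) was at 169, 148 and 146 CPM against 489.8, 334 and 354 CPM in WT (-1.35 ± 0.18). Of these 3, *PSAE1* was called in every fit that left out a library, and *PSAD1* missed the fold minimum without WT replicate 1, at -0.89, as did *PSAF* (-0.92), *PSAG* (-0.98) and *PSAL* (-0.72). *PSAE2* (AT2G20260), at 689.6, 593 and 639.7 CPM in WT against 392, 378 and 379 CPM in libraries labelled *atwri1-1*, had the smallest fold of the class (-0.74 ± 0.13, adjusted p = 0.0121) and missed the minimum.

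PSAF and PSAN stand on the lumenal side, where plastocyanin docks. *PSAF* (AT1G31330) was at 483, 569 and 507 CPM in libraries labelled *atwri1-1* against 1294, 925 and 1037 CPM in WT (-1.06 ± 0.17, adjusted p = 0.00958). *PSAN* (AT5G64040) was at 419.6, 425 and 413 CPM against 1377, 849.6 and 971 CPM in WT (-1.35 ± 0.20). Per length, *PSAN* was the most abundant *PSA* gene in WT, at 1857 ± 153 TPM. PSAG and PSAK are membrane subunits at opposite edges of photosystem I. *PSAG* (AT1G55670) was at 263, 247 and 258 CPM in libraries labelled *atwri1-1* against 615, 503 and 503 CPM in WT (-1.08 ± 0.14, adjusted p = 0.00401). *PSAK* (AT1G30380) was at 199.7, 175 and 177 CPM against 1333, 388 and 433 CPM in WT (-1.97 ± 0.47, adjusted p = 0.0414). It had the largest fall of the class, and WT replicate 1 was 3.25 times the mean of the other WT libraries. Without that library the log2 fold change of *PSAK* was -1.16.

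PSAH, PSAL and PSAO form the side of photosystem I to which light-harvesting complex II binds in state transitions. *PSAH2* (AT1G52230) was at 99.0, 115 and 101 CPM in libraries labelled *atwri1-1* against 535, 215 and 236 CPM in WT (-1.64 ± 0.35, adjusted p = 0.0280). *PSAO* (AT1G08380) was at 260.0, 236 and 241 CPM against 1340.0, 504 and 562 CPM in WT (-1.71 ± 0.37, adjusted p = 0.0301). *PSAL* (AT4G12800) was at 412, 400.1 and 422 CPM against 1289.8, 650.3 and 696 CPM in WT (-1.09 ± 0.27, adjusted p = 0.0460). All 3 were called, with WT replicate 1 at 1.92 to 2.51 times the mean of the other WT libraries. *PSAL* was not called with the replicate number as a block (adjusted p = 0.0535). *PSAH1* (AT3G16140) was at 241, 191 and 232 CPM against 418, 352 and 350.2 CPM in WT, with a log2 fold change of -0.75 ± 0.15 below the minimum (adjusted p = 0.0220).

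**Figure D4:**
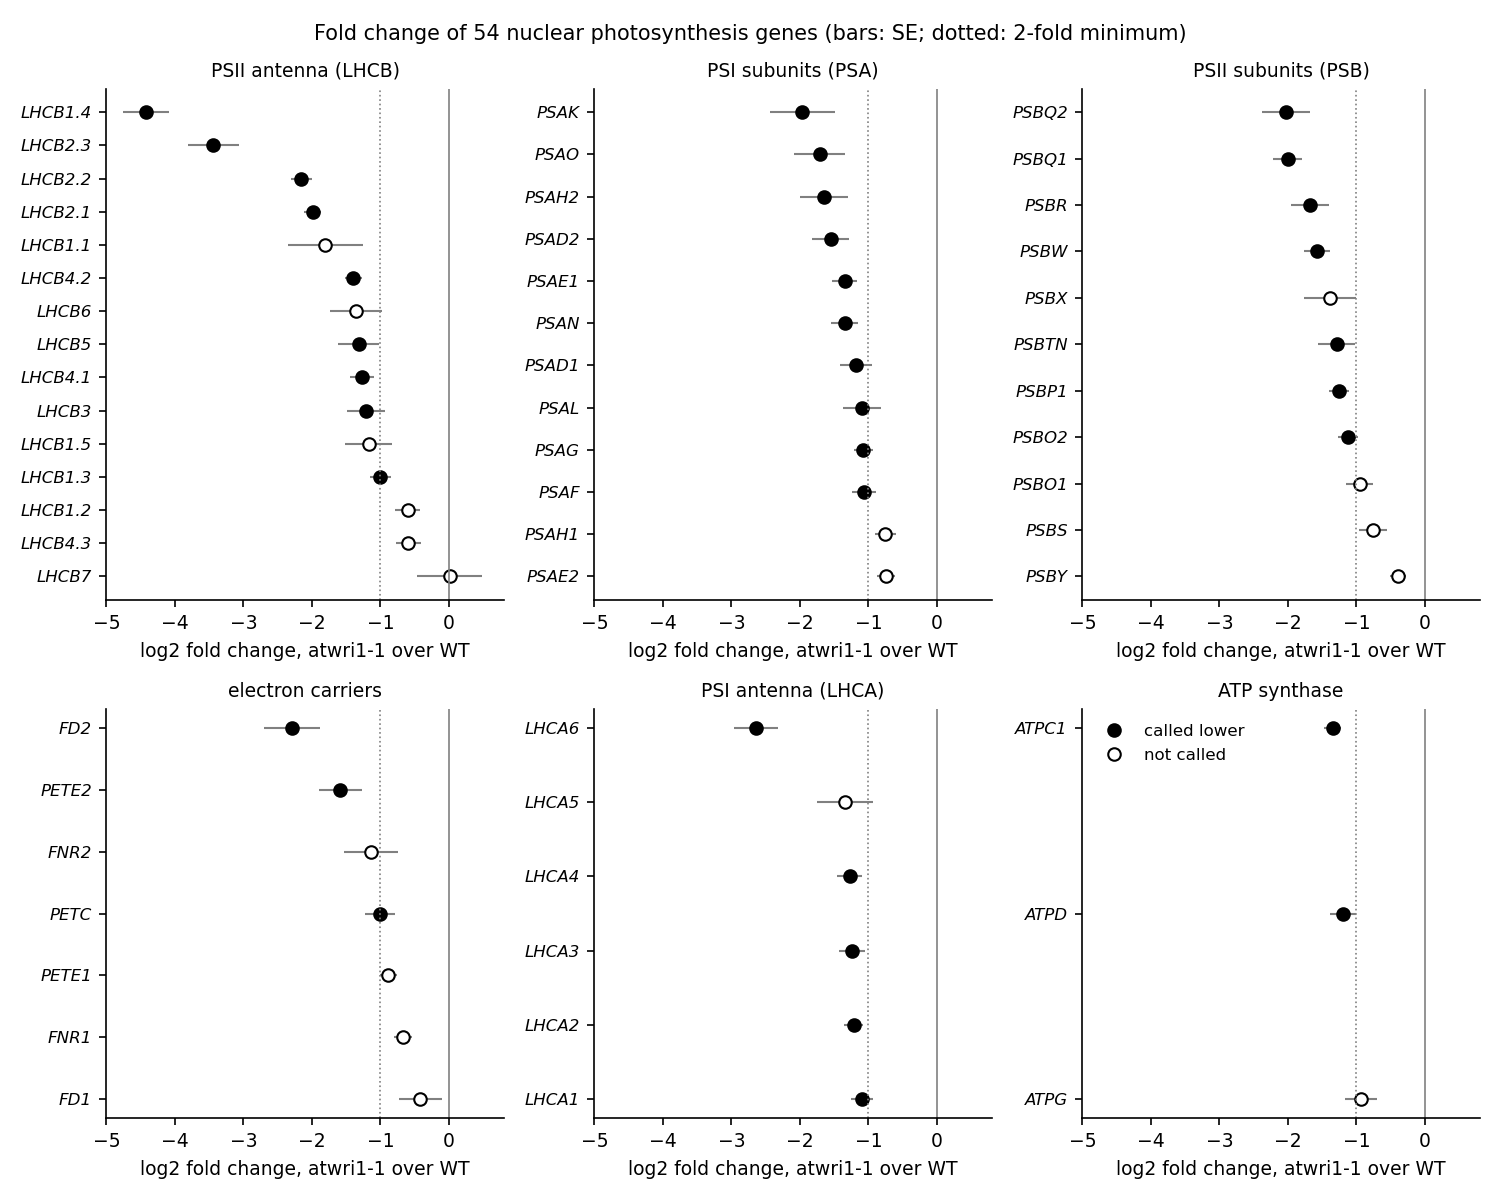
Log2 fold change (libraries labelled *atwri1-1* over WT) of the 54 genes by class, from edgeR, with bars of 1 SE, filled points for genes called lower and a dotted line at the fold minimum of 1. Estimates lie between -4.42 for *LHCB1.4* and 0.01 for *LHCB7*, and 36 of 54 points are filled.

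The *PSB* genes encode the extrinsic and small membrane subunits of photosystem II, and 7 of 11 were called lower, or 5, 4 and 4 without replicates 1, 2 and 3 labelled *atwri1-1*. PSBO, PSBP and PSBQ cover the manganese cluster that oxidizes water. *PSBQ1* (AT4G21280) was at 73.1, 79.1 and 73.4 CPM in libraries labelled *atwri1-1* against 399.8, 246 and 257 CPM in WT (-2.00 ± 0.21, adjusted p = 0.00191). *PSBQ2* (AT4G05180) was at 261, 215 and 235 CPM against 1543, 634 and 723 CPM in WT (-2.03 ± 0.35, adjusted p = 0.0119). These were the largest falls among the core genes, and *PSBQ1* was called in every fit that left out a library. *PSBP1* (AT1G06680) was at 422, 395 and 428 CPM in libraries labelled *atwri1-1* against 1136, 905 and 935 CPM in WT (-1.26 ± 0.15). *PSBO2* (AT3G50820) was at 196, 186 and 178 CPM against 459, 362 and 398 CPM in WT (-1.12 ± 0.14). *PSBO1* (AT5G66570), at 769, 645 and 662 CPM against 1704, 1086 and 1233 CPM in WT, passed the adjusted p but not the fold minimum (-0.95 ± 0.20, adjusted p = 0.0264). Summed over copies, the ratio of *PSBQ* to *PSBO* CPM was 0.346, 0.354 and 0.367 with the label *atwri1-1* against 0.898, 0.608 and 0.601 with the label WT, with no overlap and no test, since this pair was chosen after the values were seen.

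Other photosystem II subunits varied more. *PSBR* (AT1G79040), whose product helps to hold PSBP, was at 414, 315 and 333 CPM in libraries labelled *atwri1-1* against 1642, 852 and 912 CPM in WT (-1.68 ± 0.28, adjusted p = 0.0110), and was the most abundant of the class per length in WT, at 2124 ± 420.2 TPM. *PSBW* (AT2G30570), a small membrane subunit, was at 316, 345 and 352 CPM against 1262, 818 and 928 CPM in WT (-1.57 ± 0.19, adjusted p = 0.00315). *PSBTN* (AT3G21055), which encodes a small lumenal subunit, was at 174, 145 and 170.5 CPM against 579.7, 299 and 318 CPM in WT (-1.29 ± 0.27). All 3 were called, and *PSBTN* missed the fold minimum without WT replicate 1, at -0.93. *PSBX* (AT2G06520), a small membrane subunit, had no overlap between groups but no call, at 249, 248 and 265 CPM against 1131, 409.7 and 449.6 CPM in WT (adjusted p = 0.0669). *PSBS* (AT1G44575), whose product belongs to the antenna superfamily and is needed to dissipate excess light, was not called, at 894, 715 and 824 CPM in libraries labelled *atwri1-1* against 1749, 1130.0 and 1221 CPM in WT (-0.75 ± 0.20, adjusted p = 0.0623). *PSBY* (AT1G67740) had the smallest difference among core genes, at 392, 351 and 365 CPM against 489.6, 484 and 482 CPM in WT (-0.39 ± 0.12, adjusted p = 0.0888), and its WT values were nearly equal.

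Of the 10 carrier and ATP synthase genes, 5 were called lower, or 4 without WT replicate 1, and their median log2 fold change was -1.07. Without replicate 1, 2 or 3 labelled *atwri1-1*, 1 of the 10 was called, *ATPC1*. *PETC* (AT4G03280), the gene of the Rieske iron-sulfur protein, was at 216, 205 and 215 CPM in libraries labelled *atwri1-1* against 574, 330.4 and 373 CPM in WT (-1.01 ± 0.22, adjusted p = 0.0295). It was called by a narrow margin, and the fit with a replicate block gave -0.96, short of the minimum. *PETE2* (AT1G20340), which encodes the more abundant plastocyanin of leaves, was at 228, 232 and 229.5 CPM against 1080.0, 487 and 502 CPM in WT (-1.58 ± 0.32, adjusted p = 0.0222). *PETE1* (AT1G76100), the other plastocyanin gene, was at 185, 182 and 202 CPM against 347, 332 and 375 CPM in WT, and passed the adjusted p but not the fold minimum (-0.89 ± 0.12, adjusted p = 0.00573).

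*FD2* (AT1G60950), which encodes the main ferredoxin of leaves, had the largest fall among the carriers, at 254, 184 and 194 CPM in libraries labelled *atwri1-1* against 1752, 662 and 670.2 CPM in WT (-2.29 ± 0.41, adjusted p = 0.0145). Without WT replicate 1, which was 2.63 times the mean of the other WT libraries, the log2 fold change was -1.67. *FD1* (AT1G10960), the minor leaf form, was at 591, 448 and 487 CPM against 1049.6, 456 and 531 CPM in WT (-0.42 ± 0.32, adjusted p = 0.462). Its groups overlapped, and without WT replicate 1 its estimate was 0.04. *FNR1* (AT5G66190) was at 291, 314 and 336 CPM in libraries labelled *atwri1-1* against 464, 517 and 519.5 CPM in WT, with a log2 fold change of -0.67 ± 0.13 below the minimum (adjusted p = 0.0191). *FNR2* (AT1G20020), the other leaf-type reductase gene, was at 77.0, 54.3 and 50.1 CPM against 224, 86.2 and 88.2 CPM in WT (adjusted p = 0.127). It was called lower only with the replicate number as a block (log2 fold change -1.01, adjusted p = 0.0398).

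Among the ATP synthase genes, *ATPC1* (AT4G04640), the gamma subunit that turns within the catalytic head, was at 129.6, 143 and 141 CPM in libraries labelled *atwri1-1* against 373, 342 and 334 CPM in WT (-1.34 ± 0.12, adjusted p = 0.00114). *ATPD* (AT4G09650), the delta subunit, was at 132, 146 and 139 CPM against 402, 254 and 301 CPM in WT (-1.20 ± 0.19, adjusted p = 0.00862). *ATPG* (AT4G32260), a subunit of the stalk, was at 112, 104 and 108 CPM against 287, 167 and 165 CPM in WT, and passed the adjusted p but not the fold minimum (-0.93 ± 0.23, adjusted p = 0.0461). *ATPC1* was even across the WT libraries and was called in every fit that left out a library.

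Across the 36 called genes, 15 were called in each of the 6 fits that left out a library. They were 9 of 14 antenna genes, 5 of 17 core genes and 1 of 5 carrier and ATP synthase genes. The 21 others lost the call in at least 1 fit, and 6 of them kept it in only 1 or 2. A gene could pass or miss the fold minimum by whether WT replicate 1 was included, since the median log2 fold change within same-numbered pairs of libraries was -1.57 for replicate 1, -0.93 for replicate 2 and -1.04 for replicate 3.

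Where 2 genes encode forms of the same subunit, the ratio of their CPM was compared between groups by an exact two-sided permutation test over libraries, for 10 pairs. With 3 libraries against 3, p cannot go below 0.10, and the Benjamini-Hochberg adjusted value of such a p over the 10 pairs was 0.167. The ratio of *FD2* to *FD1* differed most, at 0.430, 0.411 and 0.398 with the label *atwri1-1* against 1.67, 1.45 and 1.26 with the label WT, a difference of -1.81 on the log2 scale (exact p = 0.10). *FD2* was below *FD1* in all 3 libraries labelled *atwri1-1* and above it in all 3 WT libraries. The ratio of *PSAE2* to *PSAE1* was higher, at 2.32, 2.55 and 2.59 against 1.41, 1.78 and 1.80 in WT (0.59 on the log2 scale), as was that of *LHCB4.3* to *LHCB4.1*, at 0.257, 0.266 and 0.303 against 0.168, 0.148 and 0.201 (0.68). That of *PSAD2* to *PSAD1* was lower, at 0.338, 0.325 and 0.380 against 0.468, 0.438 and 0.427 (-0.35). None of these pairs overlapped between groups (exact p = 0.10 for each).

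For *PSAH2* to *PSAH1* and *PETE2* to *PETE1* the groups did not overlap either (exact p = 0.10), but WT replicate 1 was far above the other WT libraries. *PSAH2* to *PSAH1* was at 0.410, 0.603 and 0.436 against 1.28, 0.612 and 0.674 in WT, and *PETE2* to *PETE1* at 1.24, 1.27 and 1.14 against 3.11, 1.46 and 1.34. The groups overlapped for *LHCB4.2* to *LHCB4.1*, *PSBO2* to *PSBO1*, *PSBQ2* to *PSBQ1* and *FNR2* to *FNR1* (exact p of 0.40, 0.20, 0.90 and 0.70).

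**Figure D5:**
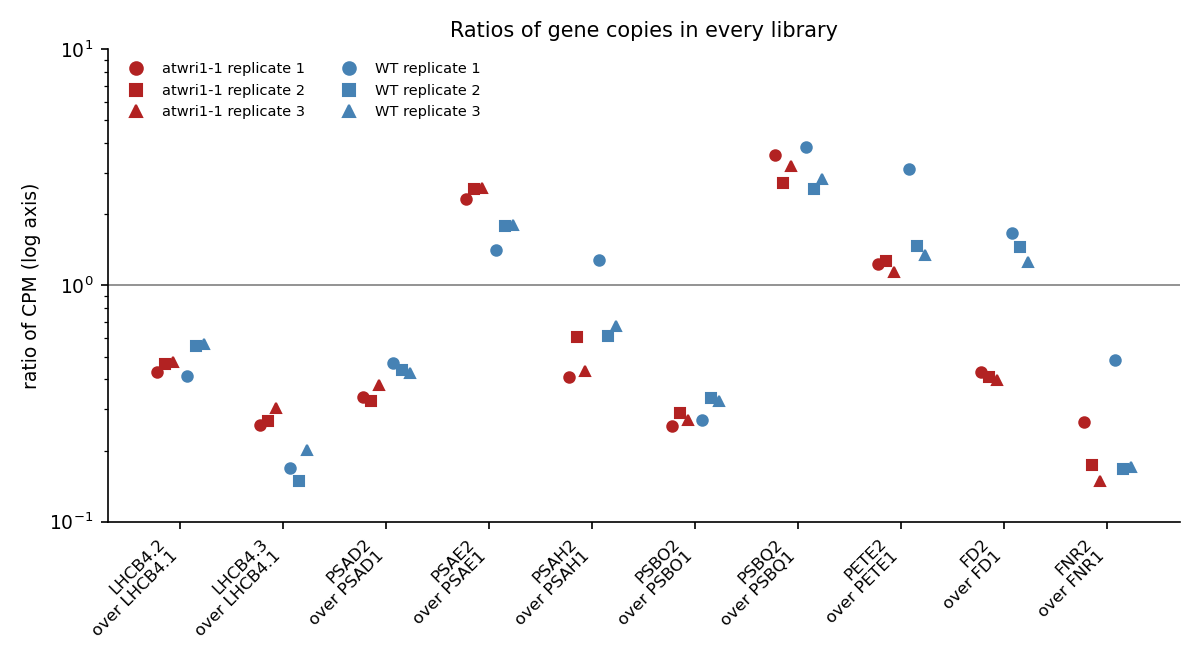
Ratio of CPM (log axis) for 10 pairs of gene copies in every library, with the libraries labelled *atwri1-1* in red, WT in blue and a marker shape for each replicate. For *FD2* over *FD1* the red points lie between 0.398 and 0.430 and the blue points between 1.26 and 1.67, on either side of 1.

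Genes that work with the photosystems were examined in 7 lists with 76 genes, of which 71 were tested. Of these, 12 were called lower and 0 higher by edgeR (3 were higher at an unadjusted p under 0.05, and 0 were called higher by DESeq2 or limma-voom), while without WT replicate 1 a pair of clock genes was called higher. Over all genes tested, 5.31% were called lower and 1.08% higher with all libraries. Without replicate 2 or replicate 3 labelled *atwri1-1*, 7 list genes were called lower. The NDH complex, which returns electrons from ferredoxin to plastoquinone, had 5 of 12 tested subunits called lower (median log2 fold change -1.30). *NDHM* was at 1.19, 0.444 and 0.451 CPM in libraries labelled *atwri1-1* against 2.04, 3.27 and 3.80 CPM in WT (-2.14). *NDHO* was at 5.21, 5.18 and 4.06 CPM against 17.2, 15.4 and 15.1 CPM in WT (-1.71). *PNSL3* was at 3.66, 2.17 and 1.69 CPM against 7.38, 6.72 and 6.82 CPM in WT (-1.47). The other called subunits were *PNSB1* (-1.40) and *PNSL1* (-1.32), and with the replicate number as a block 3 subunits were called, without *NDHM* (adjusted p = 0.0748) and *PNSB1* (adjusted p = 0.0615). *NDHO* and *PNSL1* were called in every edgeR fit that left out a library. *NDHM*, *PNSB1* and *PNSL3* lost the call without replicate 2 or 3 of either group (adjusted p from 0.0705 to 0.169). *PNSB1* also lost it without replicate 1 labelled *atwri1-1* (adjusted p = 0.0947). LHCA6 and LHCA5, which bind this complex to photosystem I, were described above.

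Among LHC-like and cyclic flow genes, 1 of 6 tested was called lower, against 5.31% of all genes tested. It was *ELIP2*, an early light-induced protein of the antenna superfamily, at 34.9, 21.9 and 18.8 CPM in libraries labelled *atwri1-1* against 451, 319 and 330.1 CPM in WT (-3.86 ± 0.29, adjusted p = 0.000442). Of 20 genes for antenna insertion, assembly, repair and state transitions, 2 were called lower, against 5.31% of all genes tested. Their median log2 fold change as a list was -0.57. *cpSRP54*, which carries antenna proteins to the thylakoid, was at 181, 225 and 199 CPM against 453, 410.3 and 435 CPM in WT (-1.10), and *PSB27*, an assembly factor of photosystem II, at 43.0, 47.6 and 44.1 CPM against 132, 92.9 and 94.9 CPM in WT (-1.25). Of 5 tested genes for other ferredoxins and ferredoxin-NADP reductases, 2 were called lower, against 5.31% of all genes tested. *FD3* was at 115, 141 and 150.1 CPM against 366, 328 and 338 CPM in WT (-1.35) and *RFNR2* at 14.4, 14.5 and 12.9 CPM against 35.7, 37.8 and 31.7 CPM in WT (-1.33).

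Of 8 regulators of light responses and plastids, 1 was called lower, against 5.31% of all genes tested. It was *PIF1*, a phytochrome-interacting factor, at 4.57, 4.04 and 4.28 CPM against 7.15, 15.9 and 13.4 CPM in WT (-1.50). The call was lost by limma-voom (adjusted p = 0.0545) and without any 1 library other than WT replicate 1 (adjusted p from 0.0764 to 0.117). *GLK1* was at 68.3, 69.1 and 68.9 CPM in libraries labelled *atwri1-1* against 49.3, 42.9 and 41.4 CPM in WT, above WT in all libraries but below the fold minimum (0.63 ± 0.12, adjusted p = 0.0201). *GLK2* was at 10.8, 6.56 and 8.46 CPM against 15.1, 7.43 and 8.80 CPM in WT (adjusted p = 0.625), with overlap between groups.

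Plastid-encoded partners of these subunits were measured in the same libraries. Of 10 tested, 0 were called lower by edgeR with all libraries or by DESeq2 or limma-voom. At an unadjusted p under 0.05, 6 were lower, and 2 passed the adjusted p with no minimum fold. Over all genes tested, 5.31% were called lower and 7.51% passed the adjusted p as lower with no minimum fold. *psaA* was at 4618, 4162 and 4351 CPM in libraries labelled *atwri1-1* against 3439, 9662 and 8599 CPM in WT, *psaB* at 7385, 7665 and 7903 CPM against 6947, 16943 and 16152 CPM in WT and *psbA* at 2250.0, 1864 and 1964 CPM against 1491, 2866 and 2862 CPM in WT. In WT replicate 1, the library where most of the nuclear genes were highest, all 3 were below the other WT libraries and also below the libraries labelled *atwri1-1*. Without WT replicate 1, 3 of the 10 were called lower (5.82% of the genes then tested), with a median log2 fold change of -0.89. In that fit all 10 passed the adjusted p as lower, as did 2411 of 18665 genes tested.

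Of 10 clock genes, *ELF4* was called lower, at 1.55, 1.97 and 1.47 CPM against 5.03, 9.73 and 5.78 CPM in WT (-2.02), while 5.31% of all genes tested were. The call was lost in edgeR fits without any 1 of the libraries labelled *atwri1-1* (adjusted p from 0.0547 to 0.0686). The morning genes *CCA1* and *LHY* were higher in replicate 1 than in the others of both groups. *CCA1* was at 24.6, 10.9 and 9.81 CPM in libraries labelled *atwri1-1* against 13.8, 5.66 and 3.80 CPM in WT, and was called higher with the replicate number as a block (adjusted p = 0.0357) and without WT replicate 1 (1.67, adjusted p = 0.0358). *PRR9*, another clock gene, was at 7.41, 2.27 and 1.24 CPM against 3.30, 0.265 and 0.259 CPM in WT, and was called higher only without WT replicate 1 (3.74, adjusted p = 0.0291). *LHY* was at 19.0, 4.49 and 5.98 CPM against 8.72, 3.10 and 1.90 CPM in WT. Their part in the high values of WT replicate 1 was not tested. In the libraries labelled *atwri1-1*, replicate 1 was the highest of its group for 31 of the 54 photosynthetic genes, a median of 0.06 (log2) above the others. Over all genes tested it was the highest for 6633 of 18241, with a median of -0.006.

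Markers of other seed tissues were checked for the dissection. Summed embryo markers were at 3888 to 6721 CPM with the label *atwri1-1* against 3482 to 5167 CPM in WT, and 0 of 6 were called by edgeR, DESeq2 or limma-voom (3 were higher at an unadjusted p under 0.05). Without WT replicate 1, the embryo marker *LEC1* was called higher by edgeR (log2 fold change 1.14, adjusted p = 0.00342). Summed seed coat markers were at 342 to 496 CPM and 383 to 420.04 CPM, with 0 of 6 tested called by any of the 3 tools or at an unadjusted p under 0.05. Summed endosperm markers were at 73.2 to 233 CPM and 205 to 418 CPM, with *SUC5* called lower and *AGL62* and *FWA* called higher by edgeR. Of the 6 tested, 2 had a negative log2 fold change, and the median was 0.71. By DESeq2, *AGL62*, *FWA* and *ZOU* were called higher (adjusted p = 0.0230, 0.00881 and 0.0261). By limma-voom none of these 3 was called higher (adjusted p = 0.0573, 0.0813 and 0.228). *AGL62* was not called with the replicate number as a block (adjusted p = 0.0544) or in any fit that left out a library. *FWA* was, of those fits, called only in that without WT replicate 1. *SUC5* lost its call without replicate 2 or 3 labelled *atwri1-1* (adjusted p = 0.0541 and 0.0564). No marker list had a gene without a read in all libraries. The part of these tissues in the lower photosynthetic values was not tested.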

How the data were processed

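RNA was measured in 6 libraries, 3 labelled *atwri1-1* and 3 labelled WT. After rRNA reads had been taken out, the authors aligned reads with bowtie 0.12.7 to the primary transcripts of TAIR10, allowing at most 2 mismatches and keeping only reads with 1 best place. Reads were counted without regard to strand, and the raw counts were used as deposited. The authors' table of normalized values was not used here. A row with no transcript name held 86.6%, 39.6% and 41.8% of the total with the label *atwri1-1* against 45.0%, 44.7% and 44.6% with the label WT, and entered neither library sizes nor tests. The remaining reads numbered 10219165, 18933870 and 8510887, and 14449130, 11566131 and 12033566. Limits from a count of 0 cover counting error only.

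The main test was that of edgeR 4.0.16 in R 4.3.3 (filterByExpr, TMM, glmQLFit and glmQLFTest, no block), as the paper names edgeR and TMM but no test. The test was checked on simulated counts with 200 changed genes, drawn with the same dispersion for every gene. The simulation held no library like WT replicate 1 and no pairing of replicates, so it cannot show how the test behaves with them. DESeq2 1.42.0 and limma 3.58.1 served as alternatives, as did other scalings, no filter, other thresholds, a block for the replicate number and fits without 1 library. The SE of a log2 fold change is its size over the root of the F statistic. TPM was computed from CPM and transcript lengths in RefSeq TAIR10.1, rescaled to 1 total in each library, so that its spread can differ from that of CPM. These models may differ from those of TAIR10, and 24169 of 24509 transcripts and all 54 members matched. Members and lists were chosen with earlier results of these data known. Of the members, per-library values are given for the called genes, for the most abundant and most extreme of each class, and for minor antenna forms and gene copies, and of the lists for the called genes, *psaA*, *psaB*, *psbA*, *GLK1* and *GLK2*. Other genes, among them *CCA1*, *LHY*, *PRR9* and the fatty acid synthesis genes, were named after their values were seen. Same-numbered replicates deviated together from their group means (correlations of 0.273, 0.280 and 0.236). The pairing comes from these values, since the labels name no shared batch, and the description of WT replicate 3 ends in 6, so that its number is in doubt. Replicates of a group differed by more than sampling noise.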

Additional observations from a re-analysis of the deposited data

How the results depend on the processing

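All 36 called genes kept their direction under every alternative, and 0 of the 54 were called higher under any. Between settings the median log2 fold change ran from -1.39 to -1.03 for antenna genes and from -1.45 to -1.03 for core genes. The shifts from the main fit were smaller than the SD between WT libraries of mean log2(CPM + 1), 0.40 and 0.41. Scaling by library size alone shifted the median of all genes from -0.01 to 0.17 (log2). With it 6 of 12 *PSA* genes and 3 of 12 NDH subunits were called lower, and 344 genes were called higher in place of 197, against 317 by DESeq2. At an adjusted p of at most 0.01, 22 of the 54, 8 core genes, 2 carrier and ATP synthase genes, 7 list genes, 544 genes lower and 72 genes higher were called. With no fold minimum the counts were 8 carrier and ATP synthase genes, 24 list genes and 485 genes higher. Leaving out 1 library gave 17 to 40 of the 54, 6 to 19 core genes, 1 to 6 carrier and ATP synthase genes, 7 to 16 list genes, 545 to 1087 genes lower and 74 to 364 genes higher. With a pseudocount of 0.1 the difference between antenna and core was -0.23, and without *LHCA6*, *LHCB1.4* and *LHCB2.3*, a choice made after seeing the data, it was 0.083. The estimate of *LHCB7* changed sign with no filter (-0.0057), by limma-voom (-0.023) and with a library left out (-0.39 to 0.48), and with a library left out those of *FD1* (-0.63 to 0.038) and *GLK2* (-0.49 to 0.067) did, both without WT replicate 1 only. The causes were not tested. With the replicate number as a block, 35 of the 54 were called lower, and 935 genes in all. Beside the calls named with it in the text, the block added *OHP2* as lower (adjusted p = 0.0314) and changed no other call. At 16 to 47 reads in a library, the estimate of *LHCB7* had an SE of 0.47.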
